A study of Mus musculus with 40 samples.

Results

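The genes described here release fat from lipid droplets or coat those droplets. They are 8 genes, Adrb3, Pnpla2, Lipe, Mgll, Pnpla3, Abhd5, G0s2 and Cidec, taken by gene symbol. They have 12 probes, out of 29411 gene symbols and 40628 probes on the array. In a fat cell, noradrenaline binds the receptor encoded by Adrb3, cyclic AMP rises and protein kinase A is activated. Lipases then take fatty acids off the stored triglyceride in successive steps. The enzyme of Pnpla2 acts on triglyceride, that of Lipe mainly on diglyceride and that of Mgll on monoglyceride. The protein of Abhd5 activates the Pnpla2 enzyme, the protein of G0s2 inhibits it, and the protein of Cidec helps droplets to fuse and grow. Most of these genes are known best from adipocytes.

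The arrays measured RNA of subcutaneous stromal vascular cells from C57BL/6J mice, which were put on the diets after weaning. Such cells are what remains of fat tissue once it is digested and the adipocytes float off. The text of the series speaks of infiltrating macrophages. The low-fat control diet (LFC) had 11 arrays, the high-fat, high-sucrose diet (HFC) 11, and HFC with 5, 20 or 75 µg of the plant formulation Kal-1 (HF5, HF20 and HF75) 6, 5 and 5. Each LFC and each HFC array stands for 1 time label, from day 1, 6, 10 and 14 and week 0 to weeks 3, 6, 9, 12, 15 and 18. HF5, HF20 and HF75 start at week 3, and the arrays of HF20 and HF75 end at week 15. Weeks were counted from day 14, so day 14 and week 0 are the same time under separate labels. They were kept apart here. How many mice gave RNA to an array is not known. The design text of the series speaks of 3 biological replicates, whereas each diet and time label has 1 array. Arrays are treated here as single measurements. Where diets or doses are compared, p-values measure how far the difference within a time label varied from label to label. For time on a diet they measure the spread between arrays of different times. Where week 9 is set against weeks 6 and 15, they measure the spread between arrays that remains once diet is allowed for. At week 9 the letters WS stand in every array title except that of HF75. The meaning of the letters is not given in the sources used here.

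A level below is a log2 intensity relative to the 75th percentile of its own array, so that a level of 0 lies at that percentile and a difference of 1 is a doubling. The 75th percentile intensity ranged from 7.86 to 2040 (median 755), and 17.2% to 87.2% of probes (median 69.5%) were well above background. A probe not well above background was set at the lowest level of its array that was. The number of arrays limits the precision. The LFC array of week 3 was dim, and of the members only Mgll was well above background there; the other members were set at -0.03 on it. The LFC array labelled day 14 carried 9104 spots marked as outliers. These arrays also had the lowest median rank correlations with the other arrays, at 0.474 for week 3 and 0.459 for day 14, against 0.834 to 0.941 on the others, apart from the LFC array of week 18, which lay just below. Where a gene has a pair of probes, probe 1 has the higher mean level and stands for the gene.

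The labelled material was first set against markers of its cell types. The macrophage markers had a mean level from -1.54 on HFC day 1 to 2.60 on HFC week 6, with a median of 0.69. The number well above background ran from 0 on LFC week 3 to all 7. The fibroblast markers ranged from -5.57 on LFC week 18 to 5.68 on LFC day 10, with a median of 4.74. LFC week 18 stood apart in several lists. Its fibroblast mean was -5.57, with 2 of 6 markers well above background, and its endothelial mean of -4.29 and skeletal muscle mean of -4.80 were also the lowest of the 38 arrays. Its erythroid mean of 5.26 was the highest. HF5 week 3 had the next lowest endothelial mean, -2.93, and the highest T cell mean, 2.37. The adipocyte markers, which digestion and flotation would remove, ranged from -4.06 on LFC week 18 to 4.46 on HF20 week 12, with a median of 0.65, and from 3 (LFC week 3) to 10 of the 10 were well above background. Fewer cells of a type and less RNA per cell cannot be told apart in such material.

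The members moved together over the arrays. Their mean level was 3.94 or more on 10 arrays and 2.23 or less on the other 28. The 10 arrays were LFC day 6 (5.27), HF20 week 12 (4.71), LFC week 9 (4.41), HFC day 1 (4.41), HF20 week 15 (4.40), LFC week 12 (4.34), the week 9 arrays of HF20, HF5 and HFC (4.32 each) and HFC day 6 (3.94). They belong to 4 of the 5 diets, and all 4 arrays with the letters WS are among them. The HF75 array of week 9 had a mean of 1.45. The LFC array of week 18 was lowest, at -2.18. The adipocyte mean was 3.44 to 4.46 on the 10 arrays and 1.89 or less on each of the others, and over the 38 arrays the member mean and the adipocyte mean had a Pearson r of 0.977 (Spearman rho 0.932). Both means come from the same arrays and share their scaling and their time points. The macrophage mean lay between -1.54 and 0.94 on the 10 arrays, within or below its range elsewhere. Other lists differed too. The brown adipocyte mean was -0.25 to 5.17 on the 10 arrays and 1.52 or less on the others. The T cell mean was -0.15 or lower and the B cell mean -0.74 or lower on the 10 arrays. On the others these means ran from -3.61 to 2.37 and from -4.89 to 2.16. The part of adipocyte RNA, or of these other cell types, in the levels below was not tested.

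**Figure D1:**
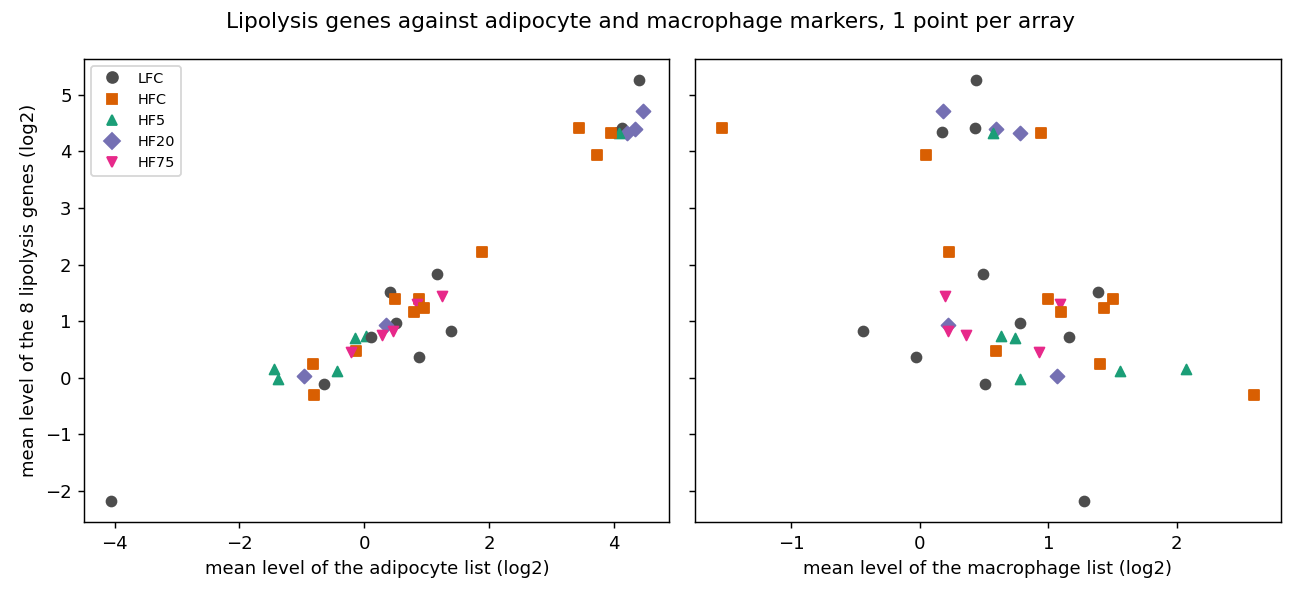
Mean level of the 8 lipolysis and droplet genes (vertical axis, log2) against the mean level of the 10 adipocyte markers (left) and of the 7 macrophage markers (right), 1 point per array, coloured by diet. The arrays with a member mean of 3.94 or more all have an adipocyte mean of 3.44 or more, and LFC week 18 lies lowest in both.

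Adrb3, the receptor, ranged from -6.79 on LFC week 18, where it was not well above background, to 6.00 on HF20 week 12. On the LFC arrays the lowest, median and highest levels were -6.79, 0.34 and 5.69, and on the HFC arrays -2.96, 0.20 and 5.31. On the HF5 arrays they were -2.76, -1.61 and 5.46. The 5 HF20 levels were -0.41, -1.25, 5.51, 6.00 and 5.79 at weeks 3, 6, 9, 12 and 15, and those of HF75 were -0.02, -0.11, 1.29, 0.09 and 0.59. The high HF5 value is the single WS array, whereas HF20 is high from week 9 on and HF75 on no array. The ranges of all diets overlap. Adrb3 was saturated on the 4 WS arrays and on LFC week 12, HF20 week 12 and HF20 week 15, so that its true level there may only be higher.

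Of the lipases, Pnpla2 probe 1 ranged from -0.03 on LFC week 3, where it was not well above background, to 6.82 on LFC day 6. Its lowest level well above background was 1.15, on LFC week 18. Probe 2 ranged from -1.24 on HF75 week 6 to 5.95 on LFC day 6. Probe 1 was saturated on 8 arrays and probe 2 on 1, so probe 2 shows the spread among high arrays better. Its levels on the WS arrays of LFC, HFC, HF5 and HF20 were 4.90, 4.88, 5.35 and 5.04. The HF75 array of the same week had 1.28. Lipe, which was saturated on no array, ranged from -1.92 on HF20 week 6 to 4.25 on HF20 week 12. Its 5 HF20 levels were -0.42, -1.92, 3.76, 4.25 and 3.53, and its 5 HF75 levels were -0.79, -1.73, -0.43, -1.10 and -0.99. The HF75 levels of Lipe all lie below 0, and those of HF20 lie on both sides of it. Levels below 0 are not particular to HF75. Lipe was also below 0 on HFC from week 3 on and on HF5, except at week 9 (3.45 and 3.85).

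Mgll, the monoglyceride lipase, ranged from 1.44 on HF5 week 3 to 6.99 on LFC day 6 in its probe 1. Its SD was 1.09 over 37 arrays, of which 7 were saturated, so that the spread among high arrays is not fully measured. It was also the only member above background on the dim LFC array of week 3, at 3.19. Its median was 4.84 on LFC, 5.11 on HFC, 5.09 on HF5, 5.47 on HF20 and 4.44 on HF75, with overlapping ranges. Pnpla3, which encodes a droplet protein of the family of Pnpla2, ranged from -6.79 on LFC week 18, where it was not well above background, to 5.19 on HF20 week 12. Its 5 HF20 levels were -1.25, -2.62, 3.85, 5.19 and 4.05, and its 5 HF75 levels were -1.61, -2.52, -0.23, -0.98 and -1.33. Pnpla3 followed the pattern of Adrb3 over the arrays, and was saturated on none of them.

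Abhd5, the coactivator of the Pnpla2 enzyme, ranged from -3.57 on LFC day 14, where it was not well above background, to 1.71 on LFC week 12 (probe 1). Its 5 HF75 levels were -2.24, -1.87, -1.83, -2.02 and -1.64, and its HF20 levels were -2.06, -1.86, 0.79, 0.89 and 0.64. Probe 2 read -3.30, -4.49, -2.15, -2.76 and -2.36 on the same HF75 arrays, a wider spread, and all 5 HF75 levels of both probes lay below 0. G0s2, the inhibitor of the same enzyme, ranged from -0.20 on HF20 week 6 to 5.10 on LFC day 6. Its 5 HF20 levels were 0.74, -0.20, 4.21, 3.61 and 3.91, and its HF75 levels were -0.02, -0.19, 0.43, 0.44 and 0.77. On the 10 arrays with the highest member means, G0s2 was at 3.09 or more and Abhd5 probe 1 at 0.47 or more. Probe 2 of Abhd5 was above 0 on them except on HFC day 6, where it was at -1.07 and G0s2 at 3.14. G0s2 and Abhd5 parted on HF5 week 3, at 3.02 and -3.40 (probe 1). They also parted, the other way, on LFC week 18. There G0s2 was at 0.95, near its median of 0.94. Abhd5 was at -0.11 (probe 1) and 0.35 (probe 2), above its medians of -1.48 and -1.65.

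Cidec, the droplet fusion protein, ranged from -6.79 on LFC week 18, where it was not well above background, to 8.19 on HFC day 6. Its lowest, median and highest levels were -6.79, 3.63 and 7.29 on LFC, 1.25, 4.06 and 8.19 on HFC, and 1.03, 2.91 and 5.43 on HF5. The HF20 levels were 3.16 at week 3, lower at week 6, and 5.50, 5.93 and 5.77 from week 9 on, and the 5 HF75 levels were 3.76, 2.97, 5.34, 3.25 and 4.25. Cidec on HF75 week 9 was measured at 5.34 without saturation. The WS arrays read 5.33 to 5.69 but were saturated, so that their true levels may be higher. HF75 therefore lay below those of LFC (5.69), HF20 (5.50) and HF5 (5.43), and cannot be ordered against that of HFC (5.33).

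**Figure D2:**
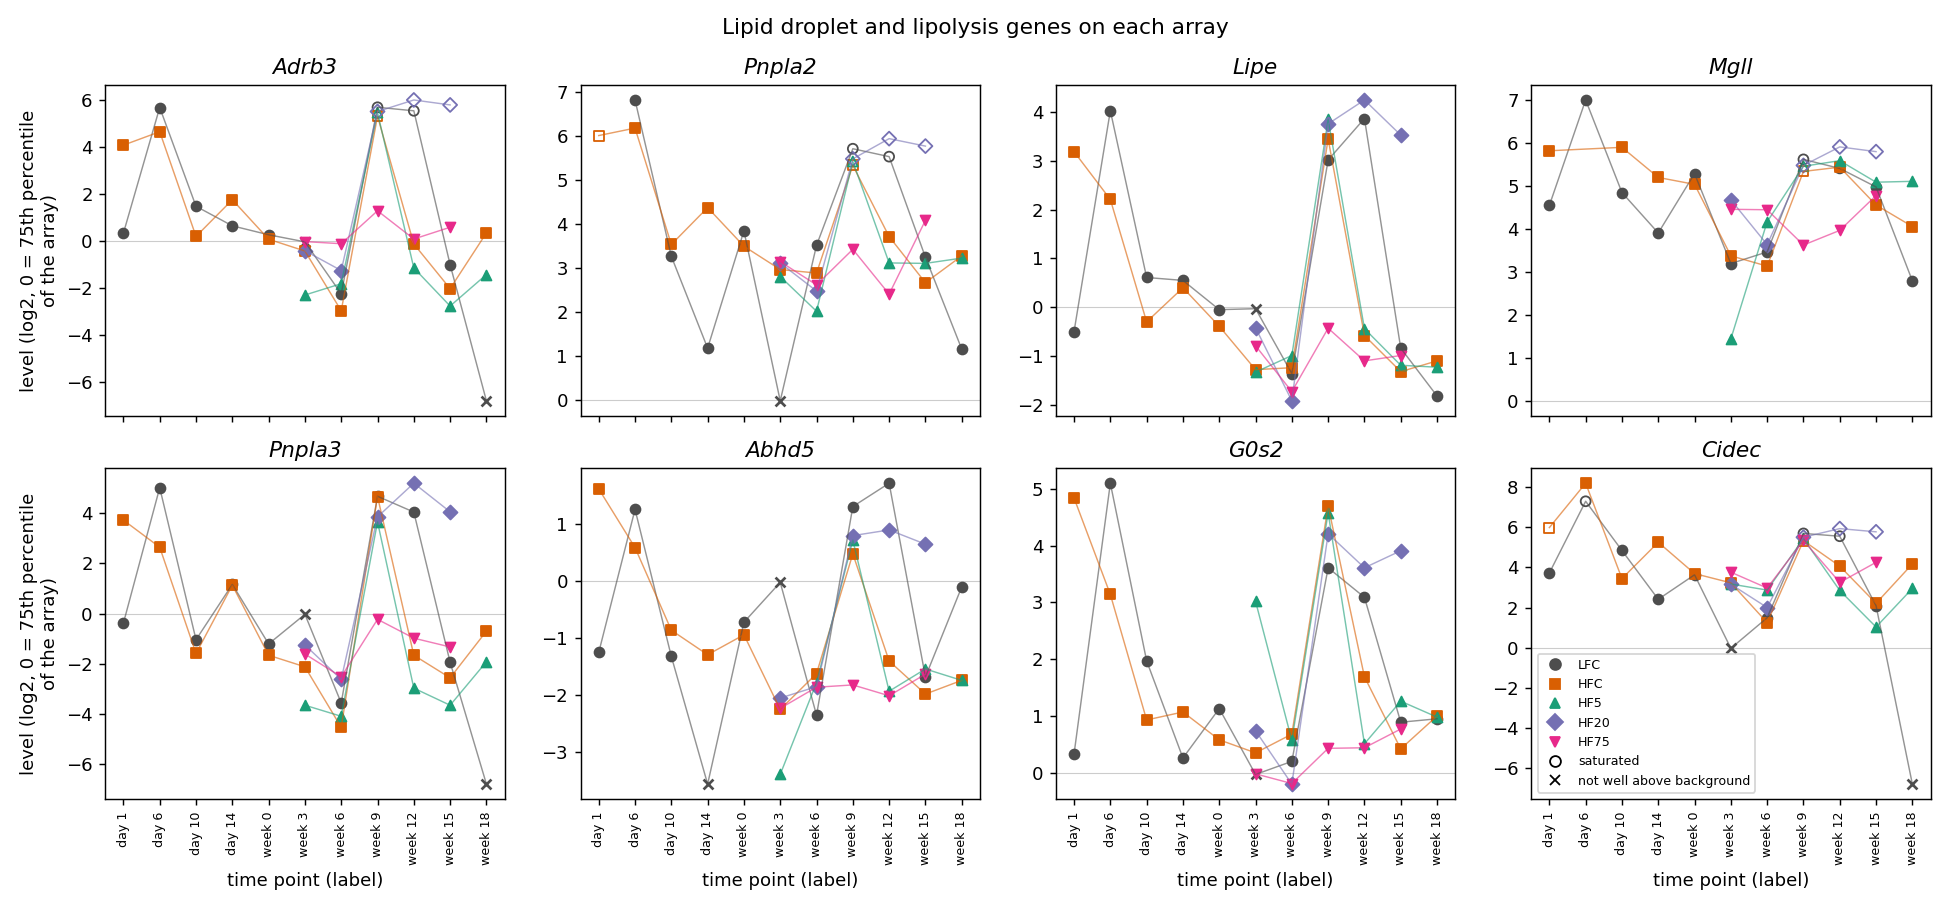
Level of each member (log2, 0 is the 75th percentile of the array) at each time point, in the order of the labels, 1 point per array, with the arrays of a diet joined by a line. Open symbols are saturated and crosses are not well above background; Adrb3 reaches 5.31 to 5.69 on the week 9 arrays of LFC, HFC, HF5 and HF20 and 1.29 on that of HF75.

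Among the 28 pairs of members, Pearson r over the arrays ran from 0.394 to 0.975, with a median of 0.768. The highest was that of Adrb3 with Pnpla3. Probes of the same gene had r of 0.889 (Pnpla2), 0.968 (Lipe), 0.93 (Mgll) and 0.819 (Abhd5). Of 17580 genes compared, those most like Adrb3 were Retn (r 0.976), Pnpla3 (0.975) and Plin1 (0.972), and those most like Cidec were Adipoq (0.977), Pck1 (0.954) and Car3 (0.928). Mgll was most like Pparg (0.881), Cd36 (0.869) and Cd59a (0.866), and Lipe like Abhd15 (0.959), Fah (0.957) and Cebpa (0.955). Pnpla3 was most like Adrb3 (0.975), Retn (0.96) and LOC100047653 (0.959). Pnpla2 was most like Mocs2 (0.957), Eif4ebp1 (0.936) and Hadhb (0.935), Abhd5 like Tmem135 (0.944), Nudt7 (0.921) and Tmem126b (0.921), and G0s2 like Dgat1 (0.906), Vegfa (0.898) and 1300001I01Rik (0.896). These correlations are over 37 or 38 arrays that share time points and scaling.

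The question of the diet comparison was whether the high-fat, high-sucrose diet moved these genes. HFC was set against LFC over 11 time labels with limma. The differences lay from -0.40 (Lipe) to 1.54 (Cidec), with a median of 0.15, against a median of -0.05 over the 29215 probes tested. The sign of the median depends on single pairs and on the dim values. It was -0.25 with 3 of 8 members above 0 without day 1, and 0.37 with 8 of 8 without week 12. Without week 18 it was 0.04, with 4 of 8 above 0. With only the pairs of the same slide it was -0.38, with 2 of 8 above 0. With dim values left out it was -0.08, and the difference of Cidec was 0.30. In this comparison 0 of 8 members passed an adjusted p of 0.05, and 0 had an unadjusted p under 0.05; over all probes 0 passed (0%) and 842 had an unadjusted p under 0.05. The difference of Cidec had a 95% confidence interval of -0.45 to 3.52. It was higher on HFC in 7 of 11 pairs, and the pair of week 18 alone differed by 10.96 because the LFC array was at its floor. Adrb3 was higher on HFC in 3 of 11 pairs. The adipocyte markers had a median difference of 0.16, the macrophage markers 0.23 and the fibroblast markers 1.37, and 0 of each list passed. At week 18 the fibroblast mean was -5.57 on LFC and 4.71 on HFC. On the 4 slides that held both diets, the Adrb3 differences were -1.03, -0.19, -0.38 and -0.39 and those of Cidec 0.89, 0.06, 3.26 and -0.36, at day 6 and weeks 0, 3 and 9. Not all of these are measured differences. At week 3 both genes were dim on LFC and set at -0.03, at week 9 both arrays were saturated for both genes, and LFC day 6 was saturated for Cidec. Of the 37 other droplet and lipolysis genes tested, 0 passed, and the 3 largest differences were 1.24 (Hilpda), 1.12 (Plin4) and -1.01 (Fitm2).

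Kal-1 was given with HFC, so each dose was set against the HFC arrays of the same weeks, and the 3 comparisons share those arrays. At 5 µg, the 8 differences ran from -0.95 to 0.35 with a median of -0.20, and 0 members passed in limma; 1 of 8 had an unadjusted p under 0.05. It was Pnpla3, lower by 0.95 ± 0.28 (SE) on HF5 and lower in 5 of 6 pairs, with an adjusted p of 0.935 in limma. The adipocyte markers had a median difference of -0.60 and the macrophage markers -0.41, with 0 of each passing. Over all 29200 probes 0 passed (0%), and 1451 had an unadjusted p under 0.05. Of the 37 related genes 0 passed, and the 3 largest differences were 1.07 (Hcar1), -0.68 (Fitm1) and -0.64 (Adcy5).

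At 20 µg, all 8 members lay above HFC, from 0.73 (Mgll) to 3.17 (Adrb3), with a median of 1.15, against a median of 0.08 over the 30831 probes tested. The differences of Adrb3 at weeks 3, 6, 9, 12 and 15 were 0.00, 1.71, 0.20, 6.12 and 7.80, those of Lipe 0.86, -0.68, 0.31, 4.83 and 4.86, and those of Pnpla3 0.87, 1.91, -0.81, 6.84 and 6.61. The differences of these 3 genes were largest at weeks 12 and 15, and those of Adrb3 and Pnpla3 were also above 0 at week 6. The differences of Mgll were 1.30, 0.50, 0.15, 0.47 and 1.24 for probe 1. For Adrb3 and Mgll, HF20 was saturated at weeks 12 and 15 and HFC was not, so their differences there are lower bounds, and the weeks of Mgll cannot be ranked. At week 9 both arrays carry the letters WS and were saturated for both genes, which leaves those differences and the means over the weeks not fully measured. In limma 0 of 8 members passed, with adjusted p from 0.401 to 0.525, and 3 of 8 had an unadjusted p under 0.05 (Adrb3, Mgll and Pnpla3); over all probes 0 passed (0%) and 3658 had an unadjusted p under 0.05. Without weeks 12 and 15, which were singled out after their values were seen, 6 of 8 members lay above HFC and the median was 0.22. The adipocyte markers had a median difference of 1.90, the macrophage markers -0.53 and the T cell markers -1.80, and 0 of each list passed. Of the 37 related genes 0 passed, and the 3 largest differences were 3.15 (Ces1d), 3.09 (Adora1) and 2.68 (Cidea), with Plin1 also at 2.68. Plin1 was saturated on 3 HF20 arrays and 1 HFC array, and Ces1d and Cidea on 1 HFC array. The order of these genes is therefore not fully measured.

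At 75 µg, 2 of 8 members lay above HFC, and the median difference was -0.25. The differences of Adrb3 were 0.40, 2.86, -4.02, 0.21 and 2.60 at weeks 3, 6, 9, 12 and 15, and those of G0s2 were -0.36, -0.87, -4.27, -1.25 and 0.35. Week 9, where HFC has the letters WS and HF75 does not, had the lowest values in both. HFC was saturated for Adrb3 there, so that HF75 lay below it by at least the difference given. In limma 0 of 8 members passed and 0 had an unadjusted p under 0.05, whereas 253 of 28910 probes passed (0.875%) and 4181 had an unadjusted p under 0.05. Probe 2 of Abhd5, which is not in that count of members, differed by -1.40 ± 0.44 (SE) and was lower in 5 of 5 pairs, with an unadjusted p of 0.0166 and an adjusted p of 0.241 in limma. Leaving out a week gave 0 probes without week 3, 6 or 15, 126 without week 9 and 76 without week 12. Without week 9, 5 of 8 members lay above HFC and the median was 0.14. The adipocyte markers had a median difference of -0.17, the macrophage markers -0.96 and the erythroid markers -1.45, and 0 of each list passed. At week 9 the adipocyte, T cell and B cell means were 1.25, 2.01 and 0.99 on HF75. On HFC they were 3.95, -3.05 and -5.13. The part of these markers in the member differences was not tested. Whether the doses differed from each other was not tested. Of the 37 related genes 0 passed, and the 3 largest differences were 2.08 (Hcar1), -1.97 (Adcy5) and -1.33 (Bscl2).

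Time on the diet was asked about by setting weeks 3 to 18 against day 1 to week 0. On LFC, 1 of 8 members lay above 0 and the median was -0.73, against a median of 0.29 over all 29383 probes. This direction rests on single arrays and on the dim values. Without LFC day 6, 4 of 8 members lay above 0 and the median was 0.04, without LFC week 18 the median was -0.14, and with dim values left out it was 0.02 with 4 of 8 above 0. Cidec had the largest difference, -3.05 ± 1.58 (SE), and its late levels spread from -6.79 to 5.69. It was dim at weeks 3 and 18, and with dim values left out the difference was -0.67; without LFC week 18 it was -1.42. On HFC, 0 of 8 members lay above 0; the differences ran from -2.13 (Adrb3) to -0.64 (G0s2) with a median of -1.31, against -0.25 over all 32453 probes. The early HFC arrays of day 1 and day 6 were high and the late array of week 9 was high too, so the ranges of the periods overlap for each member. The adipocyte markers had median differences of -0.76 on LFC and -1.53 on HFC and the macrophage markers 0.08 and 1.00. On LFC the medians of the T cell (-2.27), B cell (-1.93), fibroblast (-1.90), erythroid (-1.67), brown adipocyte (-1.60), skeletal muscle (-1.27) and endothelial (-0.97) lists were further from 0, and on HFC those of the brown adipocyte (-3.00) and T cell (1.61) lists. For the change of the diet difference, the T cell median was 3.88 and the B cell median 3.47. In limma 0 of each list passed, and their part in the member differences was not tested. In limma 0 of 8 members passed in either diet and 0 had an unadjusted p under 0.05; over all probes 0 passed (0%) in both, and 2013 on LFC and 499 on HFC had an unadjusted p under 0.05. The change of the diet difference with time was below 0 for 7 of 8 members (median -0.67, against -0.52 over all probes), and 0 passed in limma. Without the pair of day 1, 4 of 8 lay above 0 and the median was 0.08, without that of week 12 it was 0.02 with 4 of 8 above 0, and with quantile normalization it was -0.24 with 3 of 8 above 0. In the other direction, 0 of 8 lay above 0 with dim values left out (median -1.15) and without week 18 (-1.12). Abhd5 alone had an unadjusted p under 0.05, with -2.17 ± 0.86 (SE) for probe 1 and -1.08 ± 0.86 for probe 2; 1435 of 29215 probes had one, and 0 passed (0%). Of the related genes 0 of 37 passed in these 3 comparisons. The largest differences were -2.31 (Cidea), -2.28 (Plin1) and -1.58 (Adra2a) on LFC, -3.94 (Cidea), -2.97 (Plin1) and -2.25 (Plin5) on HFC, and -2.49 (Plin5), -2.25 (Adrb1) and 2.18 (Adra2a) for the change of the diet difference.

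The 4 WS arrays of week 9 were set against the 8 arrays of weeks 6 and 15 of the same diets. All 8 members lay higher on the WS arrays, by 1.12 to 6.57 with a median of 3.23, against a median of 0.04 over all probes. The levels of Pnpla3 on the WS arrays were 4.67 (LFC), 4.66 (HFC), 3.65 (HF5) and 3.85 (HF20). Its 8 levels at weeks 6 and 15 had HF20 week 15 at 4.05, and the next highest was -1.94 on LFC week 15. HF20 week 15 was likewise the only array of weeks 6 and 15 whose member levels reached the WS arrays for Lipe, Pnpla3, Abhd5 and G0s2. It read as high for Adrb3, Cidec, Mgll and Pnpla2 probe 1, but it and the WS arrays were saturated for them. Whether it reached the true WS levels is therefore not measured for these probes.

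In limma 7 of 8 members passed, all of them higher, beside 1780 of 31346 probes that passed (5.68%), of which 1166 were higher (3.72% of those tested). With slide (estimated correlation 0.755) or scan day (0.239) as a random block, 0 members and 0 probes passed. With a normexp background correction (22 probes in all) or with no filter on dim probes (24 probes), 0 members passed. Pnpla3 was higher by 6.57 ± 1.22 (SE, adjusted p = 0.0428) and Lipe by 4.18 ± 0.83 (adjusted p = 0.0428). Lipe levels on the WS arrays were 3.02 (LFC), 3.45 (HFC), 3.85 (HF5) and 3.76 (HF20). G0s2 was 9.92-fold and Abhd5 5.09-fold higher. Adrb3, Pnpla2 and Cidec were saturated on every WS array, so that their true levels may be higher there; they were at least 92-fold, 4.85-fold and 8.87-fold higher if HF20 week 15, the array of the other weeks that was also saturated, is taken as measured. Pnpla2 probe 2, saturated on no array of this comparison, was 15.1-fold higher, and its WS levels did not overlap with the others. Mgll, also saturated on every WS array, differed by 1.12 ± 0.48 (SE) with an adjusted p of 0.166 and did not pass.

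These calls rest closely on single arrays. With 1 array left out, 0 members passed without any of the week 6 arrays of LFC, HFC, HF5 or HF20, the week 9 arrays of LFC, HFC or HF5, or the week 15 arrays of LFC, HFC or HF5. In those 10 settings at most 5 probes passed in all. Without HF20 week 9 the count of members was 7 (3271 probes), and without HF20 week 15 it was 8 (6475 probes). The 4 WS arrays were scanned on 1 day, on which no other array was scanned, and lay on slides with no other array, so the letters, the week and the scan day cannot be told apart. The differences of all 8 members were above 0 in each of these settings. Their median was 2.92 to 3.28 in the 10 settings with 0 members, 3.18 with slide and 3.23 with scan day as a random block, against 3.23.

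Of the 38 related genes tested, 27 lay above 0 and 11 below, with a median difference of 1.21, and 11 passed, all of them higher, beside 5.68% of all probes. With slide or scan day as a random block 0 of all probes passed, and so 0 of these genes and of the markers named here. Plin1, Dgat2 and Retn were saturated on all 4 WS arrays and Cidea and Ces1d on 2, so their differences below are not fully measured. The genes that passed were Plin1 (5.52), which coats the droplet and holds the Abhd5 protein at rest, and Cidea (5.03), a relative of Cidec. They also included the receptors Hcar1 (4.54), Npr3 (4.49) and Adrb1 (3.10), and the triglyceride synthesis genes Dgat1 (2.53) and Dgat2 (3.29). Ces1d (4.25), Fitm2 (2.86), Bscl2 (2.81) and Pde3b (2.55), whose protein breaks down cyclic AMP, complete them. Gnas (0.39) and Prkar1a (-0.12) did not pass. The adipocyte markers had 7 of 10 higher and a median of 3.80, including Lep (6.37) and Retn (6.30). The brown adipocyte markers had 1 of 4 higher (Cidea, which is also among the related genes) and a median of 4.12. Of the macrophage markers 1 of 7 was lower (Cd14, -2.97) and the median was -0.12, and of the fibroblast markers 1 of 6 was lower (Pdgfra, -1.30) with a median of -0.51. The endothelial (-0.13), T cell (-1.19), B cell (-1.45), skeletal muscle (-1.41) and erythroid (0.15) medians came with 0 passed each. The part of these markers in the member differences was not tested.

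**Figure D3:**
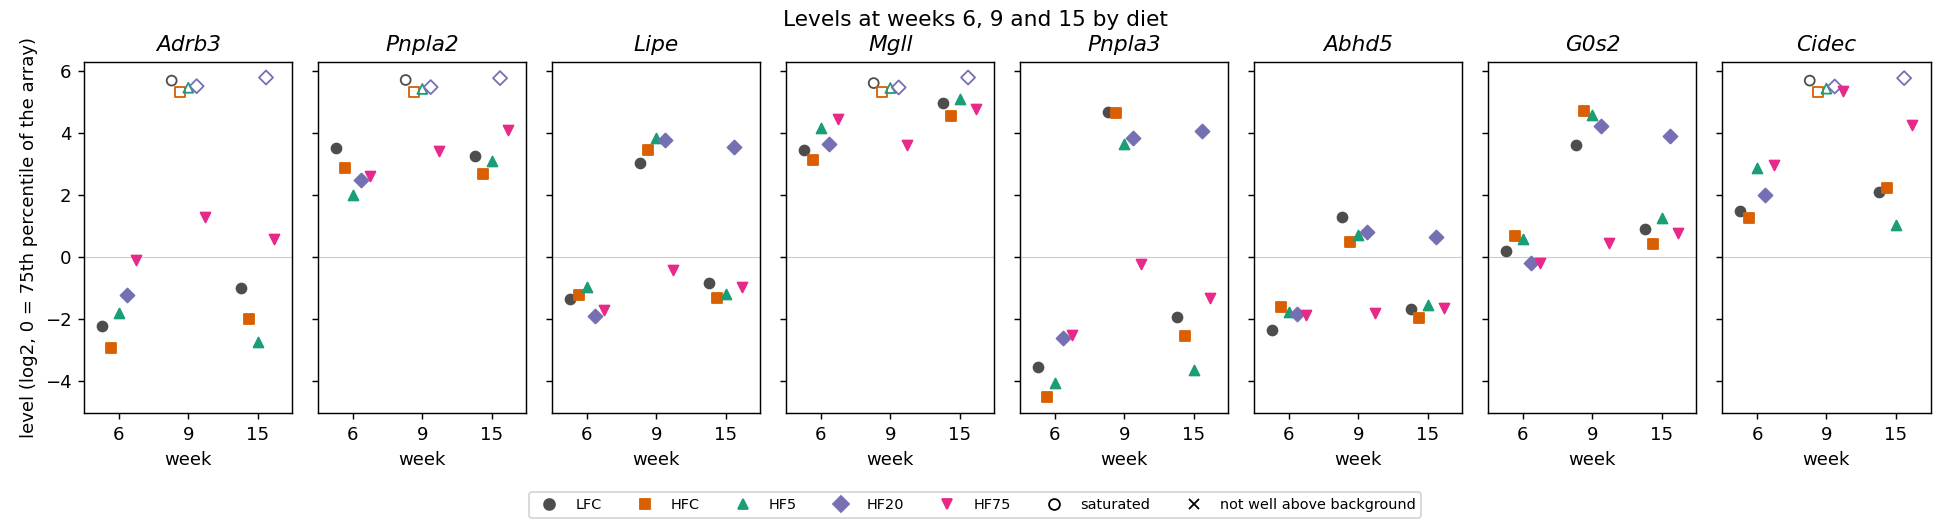
Level of each member (log2, 0 is the 75th percentile of the array) at weeks 6, 9 and 15, 1 symbol per array and diet, with saturated arrays as open symbols; the week 9 arrays other than HF75 lie together at the top of each panel except that of Cidec, and HF20 joins them at week 15. The open symbols of Adrb3, Pnpla2, Mgll and Cidec are saturated, so their distance from the other weeks is not fully measured.

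Because the members moved together on these arrays, their promoters were read from RefSeq (build GRCm38.p6), 250 bases before to 50 bases after a start given there. These starts can lie inside the span of the gene, as both starts of Lipe do. Of the 8 members, 7 had an entry, with 10 promoters in all, and Adrb3 had none. Each motif was searched on both strands. The cyclic AMP response element TGACGTCA was in 1.79% of the 32851 promoters and in 1 of the members', that of Pnpla3. The E-box CACGTG was in 7.15% of promoters and in 1 of the 2 promoters each of Lipe and Mgll. The nuclear receptor half-site AGGTCA was in 16.3% and, among members, in that of Abhd5. A match is a description of these letters only. The promoters below are those of the member nearest to Adrb3 in its pattern and of an unsaturated lipase (for Lipe, the promoter that holds the motif), with the matched letters in capitals. That of Pnpla3 lies at chr15:84167566-84167865 on the plus strand and the printed one of Lipe at chr7:25395938-25396237 on the minus strand. The other Lipe promoter, at chr7:25390063-25390362 on the same strand, holds none of the motifs. They are printed 5′ to 3′.
Pnpla3: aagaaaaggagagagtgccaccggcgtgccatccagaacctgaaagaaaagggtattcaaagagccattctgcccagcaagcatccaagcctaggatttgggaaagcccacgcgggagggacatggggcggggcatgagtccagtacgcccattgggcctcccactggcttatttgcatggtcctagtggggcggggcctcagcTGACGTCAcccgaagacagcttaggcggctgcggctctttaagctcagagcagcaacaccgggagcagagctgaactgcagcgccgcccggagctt
Lipe: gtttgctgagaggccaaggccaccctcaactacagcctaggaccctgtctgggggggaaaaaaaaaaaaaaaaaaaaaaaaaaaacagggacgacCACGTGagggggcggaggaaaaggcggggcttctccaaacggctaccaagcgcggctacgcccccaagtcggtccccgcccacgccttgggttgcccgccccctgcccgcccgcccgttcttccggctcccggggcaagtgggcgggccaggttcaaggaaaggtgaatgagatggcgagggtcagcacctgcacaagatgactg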

How the data were processed

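Cy3-labelled RNA of 40 samples was hybridised on 1-colour Agilent arrays. Per the file headers, the deposited intensities came from Feature Extraction 10.5.1.1 (the submitters' notes give 9.1), with background subtracted and no scaling across arrays. The 2 week 18 arrays with conflicting labels were left out. Gene symbols came from a deposited table, whose 40 columns of the authors' log2 fold changes against LFC were not used; Adgre1, Ces1d, Hcar1, Hcar2, Hilpda and Plin2 were matched through RefSeq. Spots marked as outliers were dropped, each array was scaled to its 75th percentile on the log2 scale, and duplicate spots were averaged. Dim values, with under 50% of spots well above background, were set to the lowest well-measured level of the array. Tests used limma 3.58.1 (R 4.3.3; files read with Python 3.11.15), on probes well measured on 50% or more of the arrays in one of the groups, and a Benjamini-Hochberg adjusted p under 0.05. Blocks were the time label for diets and doses, the diet for the WS arrays, and none for time on a diet. The fits were tested on simulated data, and no result given here rests on that test. The number of arrays limits the precision. Members and lists were chosen with earlier results of these data known, among them high adipocyte genes on some arrays. Named genes were all members, those of 38 related genes that passed or else the 3 largest differences, and the 3 genes most correlated with each member among those well above background on 80% of arrays. Related genes saturated on some arrays were ranked by their levels as read, so their order is not fully measured. Gnas, Prkar1a and the markers named were chosen after their values were seen. Alternatives changed the background correction, scaling, filter, dim values, blocks and arrays.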

Additional observations from a re-analysis of the deposited data

Results flagged for a closer look

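Among 84 sets of 4 to 6 arrays (each probe in HF5, HF20 and HF75, and in the early and the late arrays of LFC and HFC), 17 held a highest or lowest array far from the rest of its set. Chance flags about 1 in 20 sets, and the probes of a gene and the genes themselves share arrays. On HF5, the week 9 array, which carries the letters WS, stood far above the others for Adrb3 (5.46, next 1 at -1.14), Pnpla2 (5.42 for probe 1 and 5.35 for probe 2), Lipe (3.85 and 3.07), Pnpla3 (3.65) and Abhd5 probe 2 (1.03). On HFC from week 3 on, the week 9 array stood far above for Pnpla2 probe 2 (4.88), Lipe (3.45 and 3.03), Abhd5 (0.47 and 0.81) and G0s2 (4.70). On LFC up to week 0, the day 6 array stood above for Adrb3 (5.68) and Lipe probe 1 (4.03). In the other direction, HF5 week 3 was far below the rest for Mgll, at 1.44 for probe 1 and 0.32 for probe 2. That array also had an endothelial mean of -2.93, the lowest after LFC week 18, a fibroblast mean of 3.02 and the highest T cell mean of the 38 arrays, 2.37; their part in the Mgll levels was not tested. The HF20 and HF75 sets held no such array. For 0 members did every pair of one dose go one way and every pair of another dose the opposite way; differences between doses were not tested.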

How the results depend on the processing

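Members passing the threshold numbered 0 under each alternative in the 7 comparisons other than that of the WS arrays. There the count was 7 in limma, and 0 with a normexp background correction (22 probes passed in all), 0 with no filter on dim probes (24 probes), 0 with slide as a random block (estimated correlation 0.755) and 0 with scan day as a random block (0.239); the cause was not tested. It was 7 with quantile normalization, with dim values kept as measured or left out, and with no replicate block. With 1 array left out it ranged from 0 to 8. The 8 WS differences stayed above 0 in 164 of 164 estimates. Elsewhere some estimates that passed in no setting changed sign: 18 of 196 for HFC against LFC, 8 of 132 for HF5, 2 of 124 for HF20, 13 of 116 for HF75, 8 of 164 and 1 of 164 for time on LFC and on HFC, and 11 of 148 for the change of the diet difference. Over all probes, the 253 calls of HF75 against HFC ranged from 0 (all 38 arrays in 1 fit, and same scan day) to 8684 (no filter), and were 3 with no replicate block and 126 without week 9; normexp gave 4313 calls for time on LFC and 3035 for the change of the diet difference, where the main setting gave 0. The same-scan-day pairs, the random blocks of the time and WS comparisons and the fits without weeks 12 and 15 or week 18 were chosen after the data were seen. Signal over background limits the dim members on LFC week 3, whose median ratio of 1.53 was the lowest of the 38 arrays (median 4.86), and saturation hides differences among the highest arrays.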

Other observations

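The 2 arrays of week 18 whose labels conflict entered no comparison. The array titled HF75 and otherwise labelled HF20 had 21710 spots marked as outliers, and a median ratio of signal to background of 48.5. Of the 12 member probes it left 4, with levels of 1.67 (Pnpla2 probe 1), 2.36 (Mgll probe 2), 0.69 (G0s2) and 0.89 (Cidec). The array titled HF20 and otherwise labelled HF75 had all 12 probes well above background. Its levels were 0.96 for Adrb3, 4.43 for Pnpla2 probe 1, -0.37 for Lipe probe 1, 5.16 for Mgll probe 1, -1.97 for Pnpla3, -1.07 for Abhd5 probe 1, 1.63 for G0s2 and 5.09 for Cidec. None of these levels lay above the highest LFC array.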
